A study of Mus musculus with 36 samples.

Results

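Voltage-gated calcium channel subunits were described in islets of wild-type (WT) and Gαz knockout (KO) mice fed a control diet (CD) or a high-fat diet (HFD). The 10 genes listed were Cacna1a, Cacna1b, Cacna1c, Cacna1d, Cacna1e, Cacna1h, Cacna2d1, Cacna2d2, Cacnb2 and Cacnb3. They were chosen by a list drawn up with the gene-level values of these same 4 groups in view, so every difference between the groups below is a description of these arrays and its p-value is no independent support. A gene was read from its single-symbol transcript cluster, and 9 of the 10 genes had one, of 14860 genes in all. Cacnb3 had none and was not analysed here.

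The study used male mice on the B6N background, and the KO removes an exon of Gnaz, which encodes Gαz, in all cells of the body. Fat made up 45% of the energy of the HFD and 10% of that of the CD. Feeding began at an age of 11 weeks and lasted 16 weeks. Mouse GeneChip Exon 1.0 ST arrays were run on hand-picked islets, with 5 WT CD, 5 KO CD, 4 WT HFD and 4 KO HFD arrays. The sample labels give an age of 6 months, the deposited protocol 37 to 40 weeks, and the diet schedule ends at 27 weeks. These sources were not reconciled here. Values are deposited log2 intensities, and arrays are named by their group and the islet number in the sample titles. The study kept 3 KO HFD arrays, and the fourth was identified as KO HFD 11 from the group means behind the study's tabulated genes. Group means, SDs and tests below are over the 17 other arrays. For the 9 subunits the result with all 18 is given where a call differs. For the further gene lists it is mostly given as counts at the end.

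Voltage-gated calcium channels open when the plasma membrane depolarizes. In the beta cell, closure of ATP-sensitive potassium channels by glucose metabolism brings about this depolarization, and the calcium that enters triggers the fusion of insulin granules. Each channel has a pore-forming α1 subunit, which sets its type, joined in the high-voltage-activated types by an intracellular β subunit and an extracellular α2δ subunit. L-type channels carry a large share of the calcium current of rodent beta cells. Gαz belongs to the inhibitory G protein family and lowers cAMP, and cAMP signalling through protein kinase A is known to act on L-type channels and on genes with a cAMP response element.

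Promoter windows of Cacna1c and Cacna1d, L-type pores called higher in KO HFD islets, and of Cacna2d2, called lower than in KO CD islets, are shown first. RefSeq windows (GRCm38.p6) of 300 bases around an annotated start were matched by symbol for 8 of the 10 genes, 13 windows in all. Cacna1a and Cacna1h were not matched. Of the 3 Cacna1c windows the one that holds a searched motif is shown. Capitals mark TGACG, the short form of the cAMP response element, or TATAAA, each searched on both strands with overlaps counted.
Cacna1c, chr6:119196360-119196659, minus strand: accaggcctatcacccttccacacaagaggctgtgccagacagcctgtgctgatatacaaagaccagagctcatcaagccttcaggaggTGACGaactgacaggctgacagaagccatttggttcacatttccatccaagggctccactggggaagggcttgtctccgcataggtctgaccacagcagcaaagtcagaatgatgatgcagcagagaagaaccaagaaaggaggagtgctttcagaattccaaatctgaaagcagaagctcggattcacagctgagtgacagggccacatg
Cacna1d upstream start, chr14:30491107-30491406, minus strand: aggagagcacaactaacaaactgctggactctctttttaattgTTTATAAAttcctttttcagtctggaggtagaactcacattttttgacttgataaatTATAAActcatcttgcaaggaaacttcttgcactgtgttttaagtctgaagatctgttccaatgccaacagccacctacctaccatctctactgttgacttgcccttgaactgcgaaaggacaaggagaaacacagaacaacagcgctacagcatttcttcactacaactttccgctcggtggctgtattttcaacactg
Cacna1d downstream start, chr14:30353437-30353736, minus strand: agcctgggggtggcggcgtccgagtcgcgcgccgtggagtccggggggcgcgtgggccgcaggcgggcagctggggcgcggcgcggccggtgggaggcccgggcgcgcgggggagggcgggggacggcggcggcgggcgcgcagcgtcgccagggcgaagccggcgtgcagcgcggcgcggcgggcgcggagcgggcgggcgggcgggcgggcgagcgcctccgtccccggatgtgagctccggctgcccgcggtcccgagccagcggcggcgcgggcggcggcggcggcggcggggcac
Cacna2d2, chr9:107399630-107399929, plus strand: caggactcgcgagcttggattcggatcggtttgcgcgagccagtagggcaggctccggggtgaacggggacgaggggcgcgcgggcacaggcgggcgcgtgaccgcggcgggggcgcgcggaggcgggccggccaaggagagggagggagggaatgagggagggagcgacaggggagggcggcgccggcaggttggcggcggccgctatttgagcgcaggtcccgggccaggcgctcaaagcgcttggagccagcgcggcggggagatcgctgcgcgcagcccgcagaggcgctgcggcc
The Cacna1c window shown holds TGACG at position -161 from its start, whereas the other 2 Cacna1c windows and those of Cacna1d and Cacna2d2 hold no copy. The 2 Cacna1d windows differ in composition, with 40.3% G and C and TATAAA letters in the upstream window against 87.3% in the downstream one. Over the 13 windows, TGACG or its reverse complement was found in 4, those of Cacna1b, Cacna1c, Cacna2d1 and Cacnb2. It was in 20.8% of all 32851 RefSeq windows of this length. The full letters TGACGTCA were in none of the 13 and in 1.79% of all windows, and TATAAA was in 13.6% of all windows. These matches describe letters only, and the gene-level clusters do not tell which start a transcript used.

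Facts of the whole series that touch these genes are given here once. Gnaz ranged from 11.02 to 11.26 in WT arrays and from 10.03 to 10.56 in KO arrays. Ins2, Gcg and Sst, the main islet hormone genes, were at 13.74 to 13.95, 14.01 to 14.35 and 13.26 to 14.21. KO HFD islets read lower over the array as a whole, with a median difference of -0.13 from WT HFD and of -0.18 from KO CD over the 14860 genes. Once each array had been centred on its median over all clusters, these medians were -0.05 and -0.06. Differences are as deposited unless centring is named. The centred result is mostly given where a call changes, and for the 9 subunits in KO HFD versus WT HFD islets also where a direction changes. KO HFD 11 stood apart from all other arrays, with a mean of 11.79 over 10 genes of intestinal epithelium (a list chosen after seeing the values) against 6.47 to 6.59 elsewhere. Means of cell-type markers also differed between groups as deposited. The mean of the 14 acinar digestive enzymes measured, of 24 listed, was 13.43 to 13.83 in KO HFD and 12.69 to 13.16 in WT HFD arrays. It was 13.35 to 13.68 in WT CD and 13.10 to 13.54 in KO CD arrays. With KO under the HFD 13 of the 14 were called higher, beside 1.32% of all genes, Cela1, Cpb1, Prss2 and Cel among them. With the HFD in WT mice 8 of the 14 were called lower, beside 0.188% of all genes called in either direction. Against KO CD islets 7 of the 14 were higher in KO HFD islets, beside 1.45%. The mean of the 14 beta cell markers measured, of 16 listed, was 12.08 to 12.15 in KO HFD, 12.18 to 12.35 in WT HFD and 12.18 to 12.47 in KO CD arrays. The mean of 11 endothelial genes was 9.89 to 9.96 in KO HFD and 10.11 to 10.22 in WT HFD arrays. Delta and PP cell markers, 7 of 8 measured, had means of 10.58 to 10.80 in KO HFD, 10.78 to 11.08 in WT HFD and 11.08 to 11.35 in KO CD arrays, and 6 of the 7 were called lower than in KO CD islets. Alpha cell markers, 7 of 10 measured, had means of 10.10 to 10.30 in KO HFD, 10.04 to 10.40 in WT HFD and 10.34 to 10.78 in KO CD arrays, and 5 of the 7 were called lower than in KO CD islets, where 44.6% of all genes were. After centring, 14 of 14 acinar enzymes were higher than in WT HFD islets, beside 2.12% of all genes. Of the 14 beta cell markers 0 were then called (3 lower as deposited, beside 28.1% of all genes). Of the 11 endothelial genes 4 were lower, beside 13.0% of all genes (9 as deposited, beside 28.1%). Against KO CD islets 5 of 7 delta and PP and 3 of 7 alpha cell markers were lower after centring, beside 21.2%. The part of these markers in the differences below was not tested. In KO HFD and WT HFD arrays the acinar enzyme means did not overlap, nor did the beta cell means. The beta cell means of KO HFD and KO CD arrays did not overlap either. The covariate fits below thus cannot tell marker and group apart in the first comparison. The fit with the beta cell covariate cannot do so in the second. In whole islets, fewer cells of a type and less RNA per cell cannot be told apart.

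In islets of HFD-fed mice, the L-type genes Cacna1c and Cacna1d and the P/Q-type gene Cacna1a were higher in KO than in WT mice, by 1.15-fold to 1.20-fold, while the other 6 subunits did not pass the test. No subunit was called lower, although the unadjusted p of Cacna2d2 was 0.0197. The background was 1.32% of all genes called higher and 28.1% called lower in this comparison (limma, Benjamini-Hochberg adjusted p under 0.05). The differences of Cacna1a, Cacna1c and Cacna1d stood at the 96.1, 96.4 and 97.2 percentile of all genes. After centring, the same 3 genes and no others were called, against 2.12% higher and 13.0% lower over all genes.

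**Figure D1:**
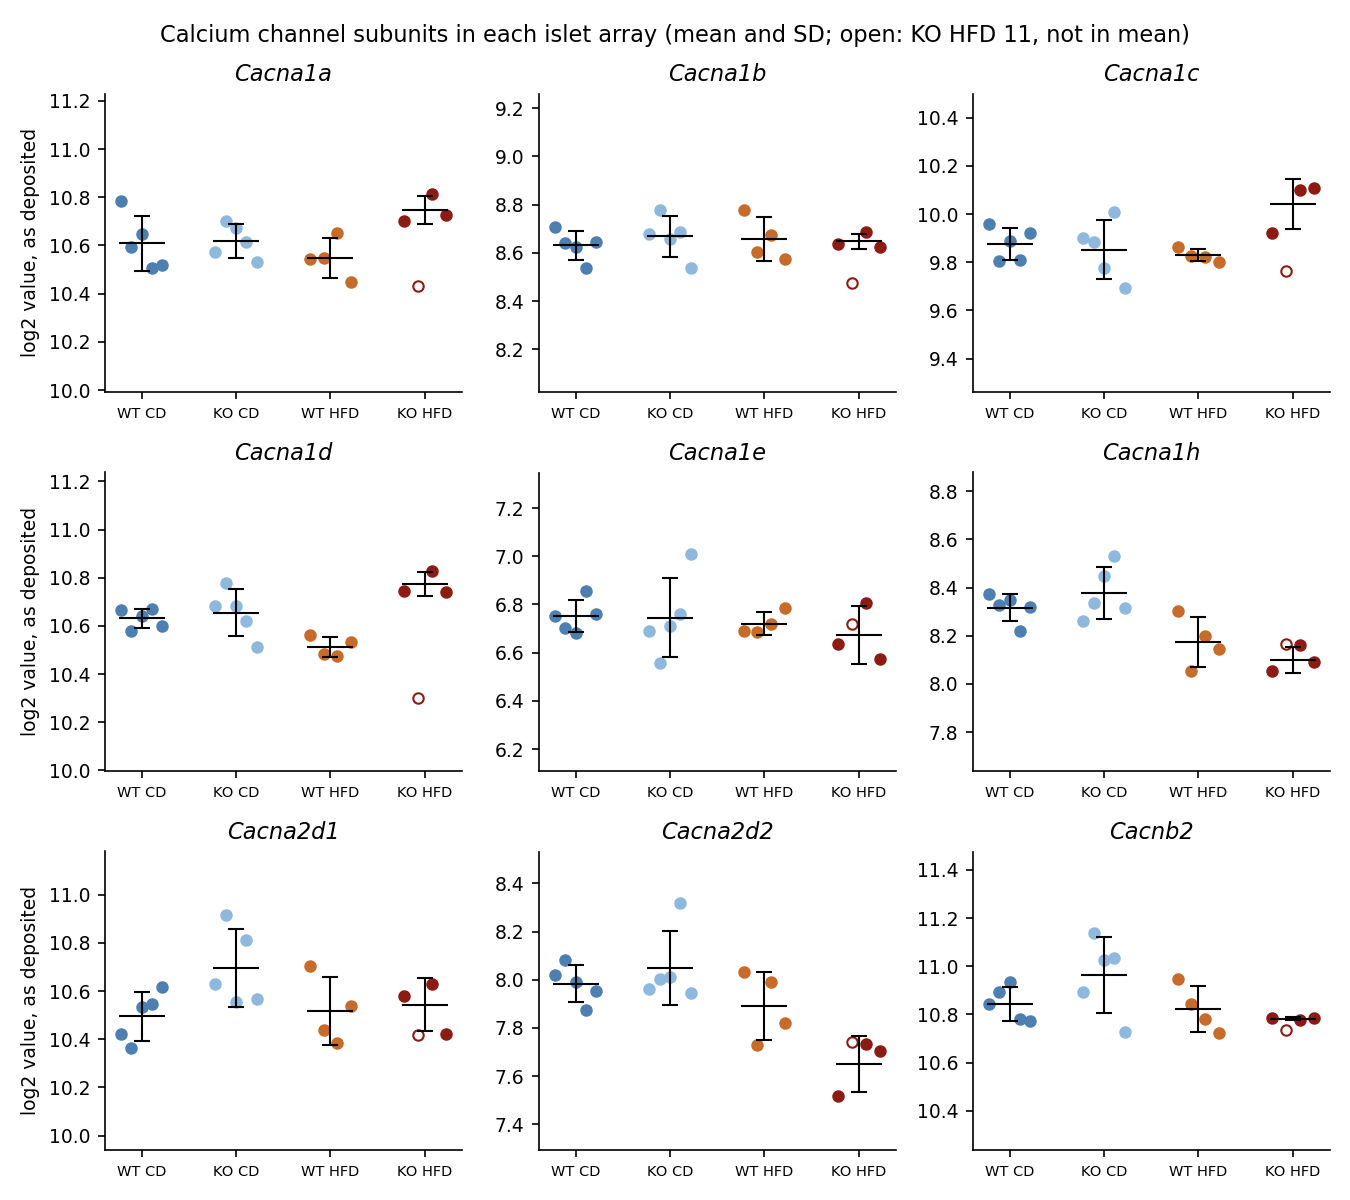
Deposited log2 values (y axis) of 9 calcium channel subunits in the 4 groups (x axis); points are arrays, bars the mean and SD, and the open point is KO HFD 11, which is not in the mean. The 3 filled KO HFD points lie above all 4 WT HFD points for Cacna1a, Cacna1c and Cacna1d, and the open point lies below them.

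Cacna1d encodes the L-type pore of neuroendocrine cells that opens at less depolarized potentials (transcript cluster 6823659). Its log2 values were 10.67, 10.58, 10.64, 10.67 and 10.60 in WT CD islets (4, 5, 6, 14 and 15) and 10.68, 10.78, 10.68, 10.62 and 10.51 in KO CD islets (1, 2, 3, 12 and 13). They were 10.56, 10.48, 10.48 and 10.53 in WT HFD islets (7, 8, 9 and 16) and 10.75, 10.83 and 10.74 in KO HFD islets (10, 17 and 18). The 3 KO HFD values lay above every WT HFD and WT CD value, and only KO CD 2 among the other arrays reached them. KO HFD 11 read 10.30, the lowest of the 18 arrays. The difference between KO HFD and WT HFD was 0.26 (SE 0.06, adjusted p = 0.00462, limma) as deposited and 0.33 (adjusted p = 0.00323) after centring.

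Cacna1c encodes the L-type pore best known from heart and smooth muscle and also present in mouse beta cells (6956902). Its values were 9.96, 9.81, 9.89, 9.81 and 9.92 in WT CD and 9.90, 9.89, 9.77, 10.01 and 9.69 in KO CD islets. They were 9.86, 9.83, 9.82 and 9.80 in WT HFD and 9.92, 10.10 and 10.11 in KO HFD islets, with 9.76 in KO HFD 11. The KO HFD values did not overlap those of WT HFD islets, but KO HFD 10 lay within the WT CD and KO CD ranges. The difference from WT HFD was 0.21 (SE 0.07, adjusted p = 0.0311) as deposited and 0.29 (adjusted p = 0.0169) after centring.

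Cacna1a, the P/Q-type pore that couples to exocytosis at many nerve terminals, had the smallest difference of the 3 (6977751). It read 10.79, 10.59, 10.65, 10.51 and 10.52 in WT CD and 10.57, 10.70, 10.67, 10.62 and 10.53 in KO CD islets. It read 10.55, 10.55, 10.65 and 10.45 in WT HFD and 10.70, 10.81 and 10.73 in KO HFD islets, with 10.43 in KO HFD 11. The KO HFD and WT HFD ranges did not overlap, whereas WT CD 4 and KO CD 2 lay within the KO HFD range. The difference was 0.20 (SE 0.07, adjusted p = 0.0412) as deposited and 0.27 (adjusted p = 0.0232) after centring. Groups that did not overlap with KO HFD above WT HFD were found for 2.22% of all genes, and with KO HFD below for 36.5%.

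These 3 calls rested on few arrays. With KO HFD 11 added, the differences were 0.12 for Cacna1a, 0.14 for Cacna1c and 0.14 for Cacna1d (adjusted p = 0.287, 0.182 and 0.254), and none of the 9 subunits was called (limma; 1, Cacna2d2, had an unadjusted p under 0.05), against 0.956% higher and 20.3% lower over all genes. With each of the other arrays left out in turn, Cacna1d kept its call every time, with a difference of 0.23 to 0.28. Cacna1a and Cacna1c both lost theirs without WT HFD 7, WT HFD 8, WT HFD 16, KO HFD 17 or KO HFD 18. Cacna1a also lost its call without KO HFD 10, WT CD 5 or WT CD 6, and Cacna1c without WT HFD 9. Cacna2d2 was called lower without WT HFD 8 (-0.30, adjusted p = 0.0321) or without KO CD 12 (-0.24, adjusted p = 0.0247). With the acinar enzyme mean as a covariate, no subunit was called, although the difference of Cacna1d was 0.38 (adjusted p = 0.0536). With the beta cell marker mean as a covariate, added after seeing the data, it was 0.33 (adjusted p = 0.00465).

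**Figure D2:**
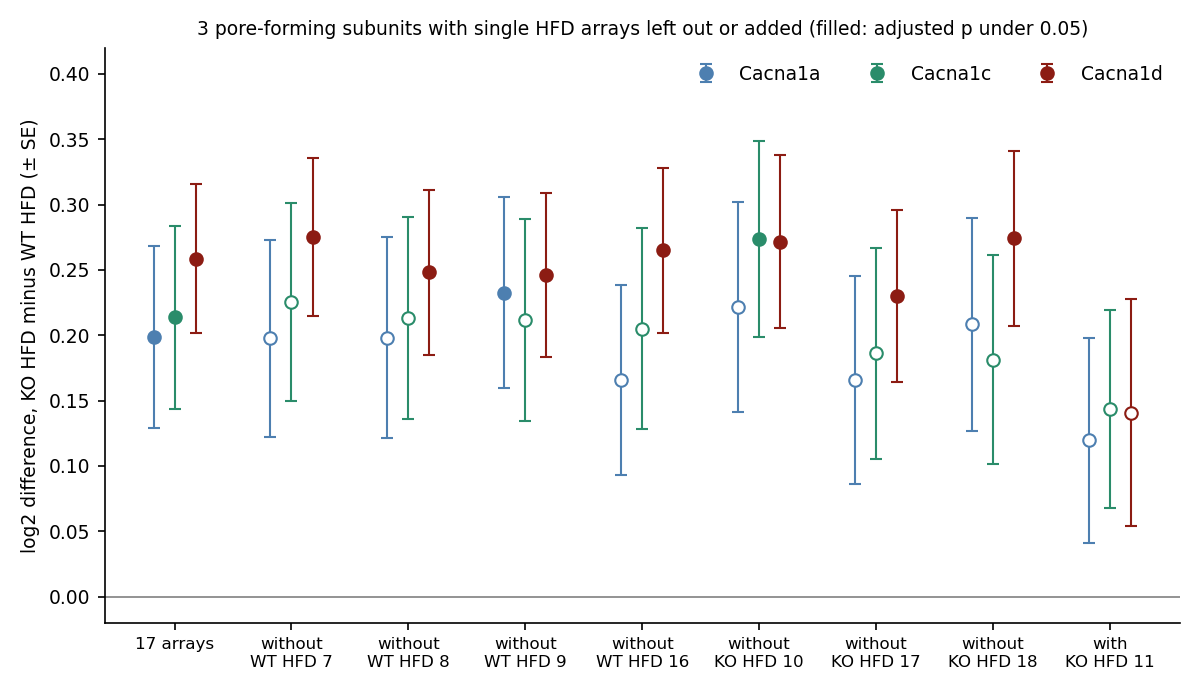
Difference in log2 value between KO HFD and WT HFD islets (y axis, ± limma SE) for 3 pore-forming subunits over the 17 arrays, with each HFD array left out in turn, and with KO HFD 11 added (x axis); filled points have an adjusted p under 0.05. Cacna1d is filled everywhere except with KO HFD 11, where its difference is 0.14.

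The other α1 genes measured differed less in this comparison. Cacna1b, the N-type pore (6885345), read 8.57 to 8.78 in WT HFD and 8.63 to 8.68 in KO HFD islets, a difference of -0.01 (95% interval -0.14 to 0.12). Cacna1h, a T-type pore that opens near the resting potential (6854420), read 8.05 to 8.30 and 8.05 to 8.16, a difference of -0.07 (95% interval -0.22 to 0.07). Cacna1e, the R-type pore (6763196), read 6.68 to 6.79 and 6.58 to 6.81. All of its values lay under 7.52, the 95th percentile of 718 olfactory receptor genes, which are silent in most tissues, so its level cannot be set apart from background.

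None of the 3 listed auxiliary subunits measured was called in this comparison. Cacna2d1, an α2δ subunit that carries the channel to the membrane (6928909), read 10.38 to 10.70 in WT HFD and 10.42 to 10.63 in KO HFD islets. Cacnb2, the β subunit gene measured among those listed (6875191), read 10.72 to 10.95 and 10.78 to 10.79. Their ranges overlapped, and the differences were 0.03 (95% interval -0.18 to 0.23) and -0.04 (95% interval -0.21 to 0.13). Cacna2d2, a second α2δ gene (6992215), read 8.03, 7.73, 7.99 and 7.82 in WT HFD and 7.52, 7.73 and 7.70 in KO HFD islets. Its difference of -0.24 (SE 0.09, adjusted p = 0.0613) did not pass the test. After centring, the differences were 0.07 for Cacna1b, 0.0005 for Cacna1h, 0.03 for Cacna1e, 0.10 for Cacna2d1, 0.03 for Cacnb2 and -0.17 for Cacna2d2, none of them called. Those of Cacna1b, Cacna1h, Cacna1e and Cacnb2 had thus changed sign.

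**Figure D3:**
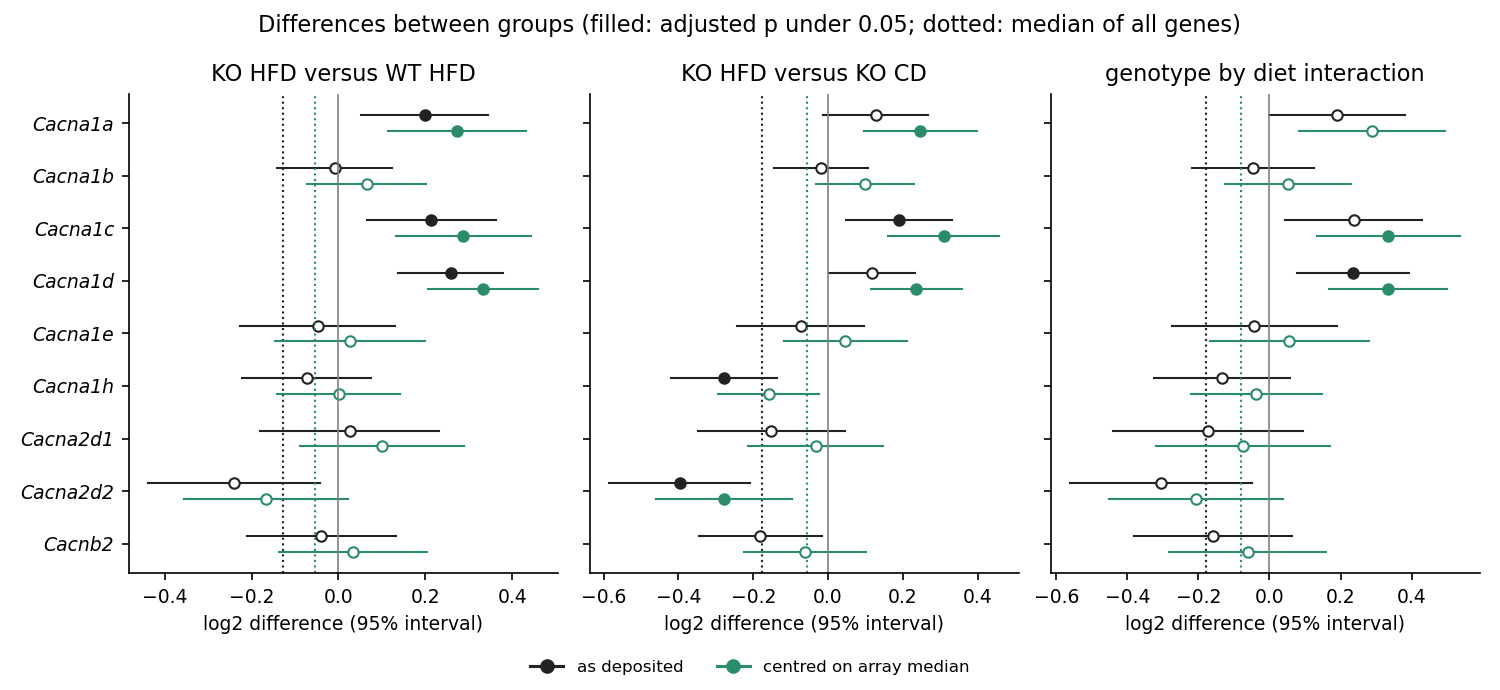
Log2 differences (x axis, points with 95% intervals) of 9 subunits (y axis) in 3 contrasts, as deposited (black) and after centring each array on its median (green); filled points have an adjusted p under 0.05 and dotted lines mark the median of all genes. Cacna1a, Cacna1c and Cacna1d lie to the right of 0 on both scales in all 3 panels, and Cacna2d2 to the left.

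Within KO islets, the HFD went with higher Cacna1c and with lower Cacna1h and Cacna2d2, and 6 subunits did not pass the test. This comparison shares its KO HFD arrays with the one above. Cacna1c was higher by 0.19 (SE 0.07, adjusted p = 0.0281), although KO HFD 10 lay within the KO CD range. This call was lost without KO CD 3, KO CD 13, KO HFD 17 or KO HFD 18, whereas those of Cacna1h and Cacna2d2 were kept with each array left out in turn. Cacna1d was called higher without KO CD 2 (0.15, adjusted p = 0.0323) and Cacnb2 lower without KO CD 13 (-0.24, adjusted p = 0.00796). The background was 1.45% called higher and 44.6% called lower. Ranges that did not overlap were found for 1.23% of all genes with KO HFD above KO CD and for 40.4% with KO HFD below, and for 2 of the 9 subunits, both below.

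Cacna2d2 had the largest difference of the 9 subunits in any contrast as deposited, -0.40 (SE 0.09, adjusted p = 0.00243) in KO HFD versus KO CD islets, a 1.32-fold lower value. It read 7.96, 8.00, 8.01, 8.32 and 7.94 in KO CD and 8.02, 8.08, 7.99, 7.87 and 7.95 in WT CD islets. The 3 KO HFD values, 7.52 to 7.73, lay below all of these. KO HFD 11, at 7.74, was also below them. Cacna1h read 8.26, 8.33, 8.45, 8.53 and 8.32 in KO CD islets, above the 8.05, 8.16 and 8.09 of KO HFD islets, and its difference was -0.28 (SE 0.07, adjusted p = 0.00351). In WT CD islets it read 8.37, 8.33, 8.35, 8.22 and 8.32.

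Centring changed which subunits were called in this comparison. Cacna1a (0.25, adjusted p = 0.0213), Cacna1c (0.31, adjusted p = 0.00785) and Cacna1d (0.24, adjusted p = 0.0102) were then higher and Cacna2d2 (-0.28, adjusted p = 0.0274) was lower, against 6.05% and 21.2% of all genes. Cacna1h no longer passed (-0.16, adjusted p = 0.0742). As deposited, Cacna1a differed by 0.13 and Cacna1d by 0.12, with adjusted p-values of 0.127 and 0.0901. With all 18 arrays as deposited, Cacna1h, Cacna2d2 and Cacnb2 were lower and none was higher, against 41.1% and 1.55% of all genes. With all 18 arrays centred, 2 of the 9 were lower and 0 higher, so that Cacna1a, Cacna1c and Cacna1d lost their centred calls. With the beta cell marker mean as a covariate none of the 9 was called, but this fit cannot tell marker and group apart.

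**Figure D4:**
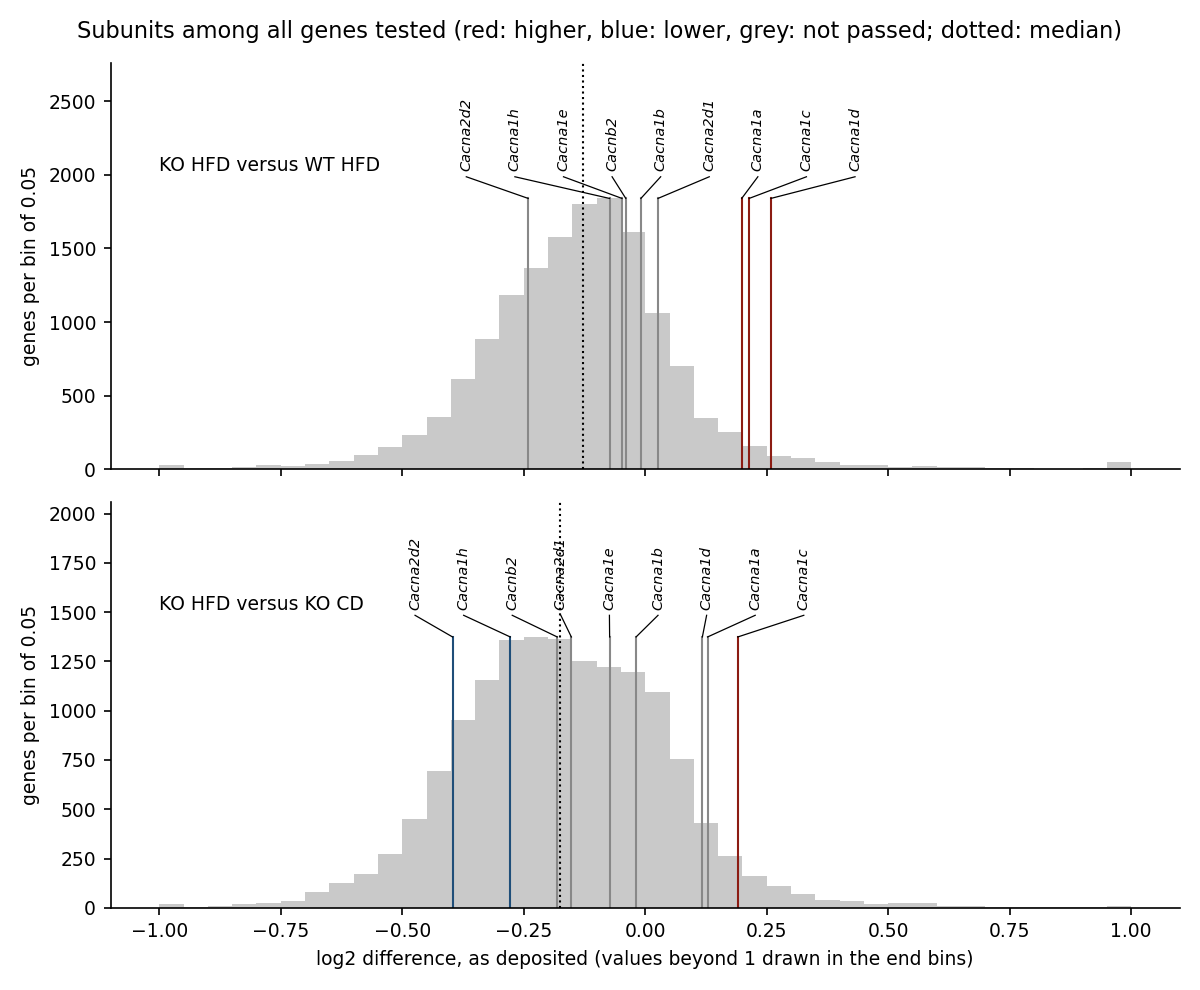
Histograms of the log2 difference (x axis) of all 14860 genes (y axis, genes per bin) in the comparisons of KO HFD with WT HFD and with KO CD, with the 9 subunits as lines: red called higher, blue called lower, grey not passed. The dotted medians are at -0.13 and -0.18, and Cacna1d in the upper panel stands at 0.26.

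The genotype by diet interaction asks whether the difference between KO and WT islets depended on the diet. Of the 9 subunits, Cacna1d was called, with an interaction of 0.24 (SE 0.07, adjusted p = 0.0248), against 1.45% of all genes above 0 and 31.2% below. For Cacna1c it was 0.24 (adjusted p = 0.0549) and for Cacna2d2 -0.30 (adjusted p = 0.0631). After centring, Cacna1c joined Cacna1d, against 2.15% above 0 and 12.6% below. Over all 18 arrays no subunit was called, against 0.989% and 22.9% of all genes. The Cacna1d call was also lost without KO HFD 17 and with KO CD 13 and WT CD 14 left out together. Cacna1c was called beside it without KO CD 12 (0.28, adjusted p = 0.0279) or KO HFD 10 (0.30, adjusted p = 0.0301), and Cacna2d2 without WT HFD 8 (-0.36, adjusted p = 0.0339).

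Neither genotype on the CD nor diet in WT mice gave a call among the 9 subunits, where the background was 0.155% and 0.188% of all genes (limma). An unadjusted p under 0.05 was found for 1 subunit in the first comparison and 2 in the second. Between KO CD and WT CD islets, the largest difference was that of Cacna2d1, 0.20 (95% interval 0.03 to 0.37, adjusted p = 0.266). It read 10.42, 10.37, 10.53, 10.55 and 10.62 in WT CD and 10.63, 10.92, 10.55, 10.81 and 10.57 in KO CD islets, and these ranges overlapped. Between WT HFD and WT CD islets, Cacna1d differed by -0.12 (95% interval -0.22 to -0.01, adjusted p = 0.511) and Cacna1h by -0.14 (adjusted p = 0.511).

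The order of the group means differed between the subunits. As deposited, KO HFD was highest and WT HFD lowest for Cacna1a, Cacna1c and Cacna1d, and KO CD was highest and KO HFD lowest for Cacna1h, Cacna2d2 and Cacnb2. After centring, the lowest mean was that of KO CD for Cacna1c and that of WT HFD for Cacna1h and Cacnb2. As deposited, the WT HFD mean of Cacna1d was 10.51 ± 0.04 (SD, n = 4) and its KO HFD mean 10.77 ± 0.05 (SD, n = 3). Between them lay the CD means, 10.63 ± 0.04 (SD, n = 5) for WT mice and 10.65 ± 0.10 (SD, n = 5) for KO mice, whose values overlapped. The KO HFD mean of Cacna2d2 was 7.65 ± 0.12 (SD, n = 3). The WT HFD mean was 7.89 ± 0.14 (SD, n = 4), and the CD means were 7.98 ± 0.08 (SD, n = 5) for WT mice and 8.05 ± 0.15 (SD, n = 5) for KO mice, with values that overlapped among these 3 groups. For Cacna1b and Cacna1e the spread between group means, 0.04 and 0.08, was smaller than the median SD within groups, 0.07 and 0.09.

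Over the 17 centred arrays, which share groups and cell makeup, some subunits varied together, given as Pearson's r with no test. Cacna1a, Cacna1c and Cacna1d had r of 0.78 to 0.80 with each other, which was 0.49 to 0.52 once group means were taken out, and Cacna1b had 0.59 to 0.71 with them. Cacna1h and Cacna2d2 had 0.84, and 0.85 without group means. Cacnb2 and Cacna1e had -0.82. Cacnb2 also had r = 0.85 with the mean of the beta cell markers, and Cacna1e had -0.74. With the means of 17 leukocyte markers and of the stellate and fibroblast markers, Cacna1e had 0.61 and 0.57. Cacnb2 had -0.63 and -0.64 with these means. The level of Cacna1e could not be set apart from background. The mean over stellate and fibroblast markers, of which 13 were measured, had -0.83 with Cacna1b. The gene most like each subunit, of all genes tested, was Zbtb20 for Cacna1d (r = 0.96), Lmbr1 for Cacna2d1 (0.94), Htt for Cacna1c (0.92), Ttll5 for Cacna2d2 (0.92) and Sipa1l3 for Cacna1b (0.91). It was Clvs1 for Cacna1h (0.90), Mllt10 for Cacnb2 (0.90), Napsa for Cacna1e (0.88) and Plekha6 for Cacna1a (0.87).

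**Figure D5:**
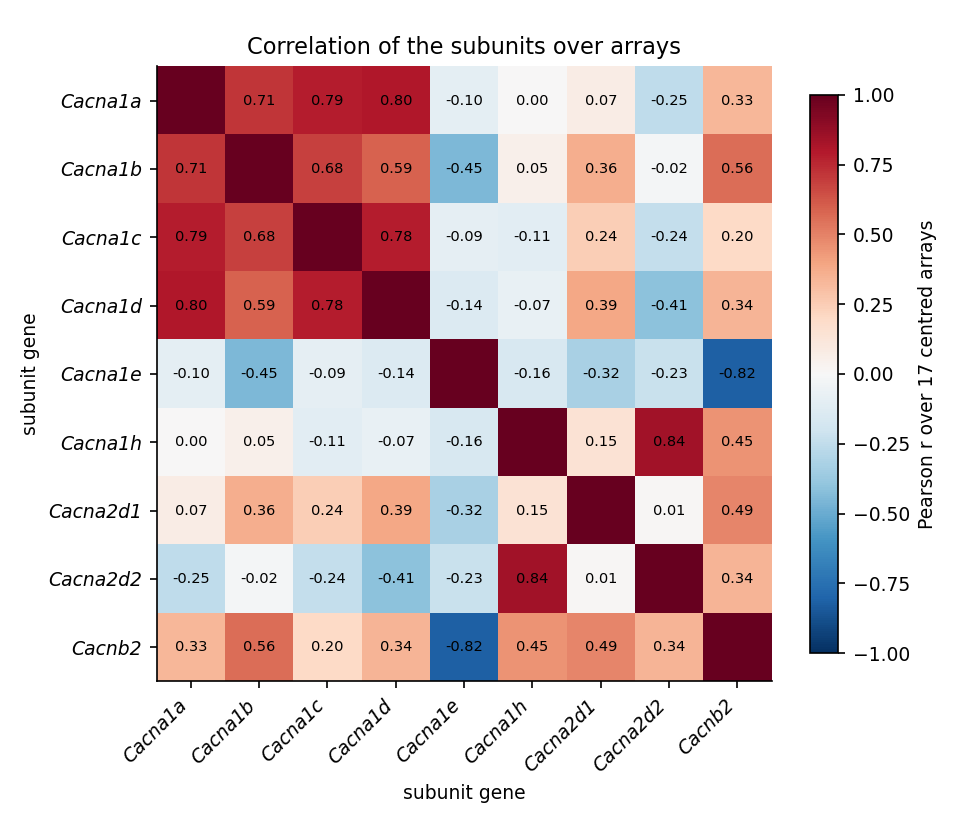
Pearson's r between each pair of 9 subunits over the 17 arrays, each centred on its median (colour scale from -1 to 1; both axes list the genes). Cacna1a, Cacna1c and Cacna1d have r of 0.78 to 0.80 with each other, and Cacnb2 and Cacna1e stand at -0.82. The level of Cacna1e cannot be set apart from background.

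Of 16 further subunit genes listed, 10 were measured. Compared with WT HFD islets, 0 of them were called higher in KO HFD islets and 2 lower, beside 28.1% of all genes lower, namely Cacna1f (-0.16, adjusted p = 0.0141), an L-type pore of the retina whose values lay under the olfactory receptor level, and Cacnb1 (-0.26, adjusted p = 0.0287), the β subunit of skeletal muscle channels. Cacnb1 read 9.62 to 9.90 in WT HFD and 9.40 to 9.65 in KO HFD islets, and the ranges overlapped. Both calls were lost after centring (adjusted p = 0.227 and 0.142) and without KO HFD 10, and that of Cacnb1 also without WT HFD 7, WT HFD 9 or KO HFD 17. In KO HFD versus KO CD islets 3 of the 10 were lower, beside 44.6% of all genes. Cacng2, a γ subunit, differed by -0.57 (adjusted p = 0.00107), and by -0.45 (adjusted p = 0.0084) after centring, although its mean over all arrays lay under the olfactory receptor level. Cacnb1 (-0.27, adjusted p = 0.0118) and Cacnb4 (-0.19, adjusted p = 0.0266), which lay under that level too, lost their calls after centring (adjusted p = 0.166 and 0.424). They were also lost without KO HFD 10, that of Cacnb1 without KO HFD 17, and that of Cacnb4 without KO HFD 18, KO CD 3 or KO CD 12. Cacng2 was called in the interaction at -0.46 (adjusted p = 0.0277), but not after centring (adjusted p = 0.0934) or without KO CD 12, WT HFD 7 or KO HFD 10. Cacng1, not called in any contrast as deposited, was called higher after centring in KO HFD versus KO CD islets (0.22, adjusted p = 0.0202) and in the interaction (0.27, adjusted p = 0.0413). Cacna1g, Cacna1s, Cacna2d3, Cacng4 and Cacng5 were called in no contrast over the 17 arrays, on either scale.

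Genes that regulate these channels or work beside them were counted from further lists. Of 10 channel regulators measured, 1 was higher and 0 lower than in WT HFD islets, beside 1.32% and 28.1% of all genes. This was Cachd1, an α2δ-like protein, at 0.52 (adjusted p = 0.0305). It read 7.64, 7.59, 7.69 and 7.50 in WT HFD and 8.75, 7.84 and 7.78 in KO HFD islets, so that KO HFD 10 stood far above the other arrays. Without KO HFD 10 the difference was 0.21 (adjusted p = 0.151), and the call was also lost without WT HFD 7 or WT HFD 16 and with all 18 arrays (0.43, adjusted p = 0.0652). The interaction of Cachd1 was 0.73 (adjusted p = 0.0214), and 0.41 (adjusted p = 0.0287) without KO HFD 10. Compared with KO CD islets, 2 of the 10 were lower, beside 44.6% of all genes. They were Rem2, a small GTPase that inhibits channels through the β subunit (-0.53, adjusted p = 0.0147), and Stac2, an adaptor that binds L-type channels (-0.21, adjusted p = 0.0315). Neither passed after centring (adjusted p = 0.06 and 0.357), when 1 of the 10 was called higher and 0 lower, beside 6.05% and 21.2% of all genes. The Rem2 call was lost without KO HFD 17, and that of Stac2 without KO CD 3, KO CD 12, KO CD 13, KO HFD 10 or KO HFD 18. The interaction of Rem2 (-0.65, adjusted p = 0.0371) did not pass after centring (adjusted p = 0.0901), and its call was kept in 7 of the 17 fits that each left out 1 array.

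Of 23 calcium-handling genes measured, 6 were lower and 0 higher than in WT HFD islets, beside 28.1% of all genes lower, with a median of -0.13 beside -0.13 over all genes. After centring, 3 were lower and 1 was higher, beside 13.0% and 2.12% of all genes. The 3 were Atp2b4, a plasma membrane calcium pump (-0.47, adjusted p = 0.0047 as deposited), the store-operated channel Orai3 (-0.32, adjusted p = 0.00618) and Micu2, a gatekeeper of mitochondrial calcium uptake (-0.34, adjusted p = 0.00862). Their calls were kept with each array left out in turn. Orai1, another store-operated channel, differed by -0.25 (adjusted p = 0.0108), but by -0.17 (adjusted p = 0.0703) after centring, and its call was lost without KO HFD 18. Compared with KO CD islets, 7 of the 23 were lower and 0 higher, beside 44.6% of all genes lower. After centring 2 were lower and 1 higher, beside 21.2% and 6.05% of all genes. Micu2 (-0.50, adjusted p = 0.000525) and Camk2d, a calmodulin-dependent kinase (-0.30, adjusted p = 0.00137), were the 2 that were lower on both scales, and their calls were kept with each array left out in turn. The others lower as deposited were Atp2b4, Stim1, Orai1, Orai2 and Orai3. In the interaction 5 were below 0 as deposited, beside 31.2% of all genes, namely Atp2b4, Orai1, Orai3, Micu2 and Camk2d. The Camk2d interaction call was kept in 5 of 17 fits that each left out 1 array. After centring, 2 were below 0 and 1 above, beside 12.6% and 2.15% of all genes.

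Of 9 genes of electrical excitability measured, 3 were lower and 0 higher than in WT HFD islets, beside 28.1% of all genes lower. Kcnj11, the pore of the ATP-sensitive potassium channel, read 10.40, 10.18, 10.19 and 10.17 in WT HFD and 9.76, 10.01 and 9.79 in KO HFD islets, with ranges that did not overlap. It differed by -0.38 (adjusted p = 0.00825), and by -0.30 (adjusted p = 0.0304) after centring. The sodium channel gene Scn3b differed by -0.43 (adjusted p = 0.0128), and by -0.35 (adjusted p = 0.0369) after centring, and lost its call without KO HFD 10. Scn3a (-0.74, adjusted p = 0.0242) was not called after centring (adjusted p = 0.0617), nor without WT HFD 8, WT HFD 16, KO HFD 10 or KO HFD 17. Compared with KO CD islets, 3 of the 9 were lower, beside 44.6% of all genes. Kcnj11 (-0.45, adjusted p = 0.00127) and Scn3b (-0.50, adjusted p = 0.00227) were also lower after centring and with each array left out in turn. Trpm5, a calcium-activated cation channel of beta cells (-0.42, adjusted p = 0.0203), did not pass after centring (adjusted p = 0.1), nor without KO CD 2, KO CD 12, KO HFD 10 or KO HFD 18. The median difference of the 9 genes was -0.17 against WT HFD and -0.20 against KO CD islets, beside -0.13 and -0.18 over all genes. In the interaction Kcnj11 (-0.57, adjusted p = 0.00507) was called on both scales, whereas Scn3b (-0.48, adjusted p = 0.0245) was not called after centring (adjusted p = 0.0755) or without WT HFD 7 or KO HFD 10.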

How the data were processed

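The authors made the deposited log2 values of the gene-level table by robust multiarray average (RMA) summarization in Affymetrix Expression Console 1.3, per the labels' processing notes. The genome build was not given in the sources used here. The exon-level values of the same 18 preparations were not used. A cluster took the symbol of the annotation supplied for the array. Of 23332 clusters, 14996 had 1 symbol, 1019 several and 7317 none. Of several clusters of a gene (135 genes) the brightest was kept.

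The members and gene lists were chosen with earlier results of these data known. A mean per group was fitted with limma 3.58.1 (R 4.3.3), with lmFit, contrasts, eBayes and Benjamini-Hochberg adjustment over 14860 genes at a threshold of 0.05. Errors are limma standard errors unless SD is named, and each percentile is among all genes. The number of arrays limits the precision. With 1 array per islet preparation, p-values measure the spread between preparations. The highest correlation between arrays was 0.996. The fit was tested on simulated data, where a pass was required only for planted differences larger than those of the subunits. The genes named were Gnaz, the listed subunits, the most alike gene of each, and the hormones. From each further list up to 4 called genes per HFD comparison with the smallest adjusted p were named, besides genes called elsewhere. Calcium-handling genes called lower than in KO CD islets were all named, with values for that comparison only for Micu2 and Camk2d. Outside the subunit lists, genes called only after centring were not named. Marker genes outside this rule were chosen after seeing their values.

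The fits were repeated over all 18 arrays, without each array in turn or KO CD 13 and WT CD 14 together, with the compared groups alone, after median centring, with quantile or cyclic loess normalization, trended robust eBayes, array weights, the mean of a gene's clusters, dropping dim genes, islet number 12 or higher as a block, the acinar enzyme mean as a covariate, and a threshold of 0.01. Centring over the genes tested and the beta cell marker covariate were added after seeing the data, as were the repeats for the further gene lists (centring, all 18 arrays and each array left out). Figures were drawn with Python 3.11.15 and matplotlib 3.10.9.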

Additional observations from a re-analysis of the deposited data

Results flagged for a closer look

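Of 36 sets of values (9 subunits in 4 groups, KO HFD 11 included), 3 held an array whose gap to its nearest neighbour was large for the range of its group by Dixon's 95% limit, where chance gives about 1 in 20. Cacna1d read 10.30 in KO HFD 11, the lowest of 4 KO HFD arrays, which read 10.74 to 10.83 otherwise. Cacna2d2 read 8.32 in KO CD 12, the highest of 5 KO CD arrays, and 7.52 in KO HFD 10, the lowest of 4 KO HFD arrays. The effect of genotype on Cacna1d differed between the diets, with an interaction of 0.24 on the log2 scale (limma, adjusted p = 0.0248, 17 arrays). The KO minus WT difference was 0.02 on the CD and 0.26 on the HFD.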

How the results depend on the processing

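No paired analysis was possible because no islet number occurs in more than 1 group. In KO HFD versus WT HFD islets, 3 subunits were called, but 0 with all 18 arrays, 0 with the acinar covariate and 1 at a threshold of 0.01, and 1 to 4 with single arrays left out. In KO HFD versus KO CD islets, 3 were called, but 5 with quantile or loess normalization or array weights, 0 with the beta cell covariate, and 2 to 4 with single arrays left out. In WT HFD versus WT CD islets the count was 0, but 1 with array weights. The interaction gave 1 call. It gave 0 with all 18 arrays, without KO CD 13 and WT CD 14, with either covariate or at 0.01, 2 after centring, with array weights or with the islet number block, 3 with quantile or loess normalization, without dim genes by either filter or when centred over the genes tested, and 0 to 2 with single arrays left out. Among subunits called under some setting in KO HFD versus KO CD islets, the difference of Cacna1d changed sign with all 18 arrays (-0.00015). That of Cacna1b did so after centring (0.10), with quantile (0.18) or loess (0.18) normalization, centred over the genes tested (0.23), with the beta cell covariate (0.16) and with single arrays left out (-0.0519 to 0.0088). That of Cacnb2 did so with quantile (0.0209) or loess (0.0596) normalization, centred over the genes tested (0.0689) and with the beta cell covariate (0.0742). Among subunits called under no setting there, Cacna1e changed sign in 2 of 31 alternatives (highest 0.18) and Cacna2d1 in 4 of 33 (highest 0.10). The cause of these changes was not tested. Of 45 pairs of a subunit and a contrast, 29 were called under no setting tried. Of 37 calls in the 4 further gene lists, over both KO HFD comparisons and the interaction, 15 were kept after centring and 27 with all 18 arrays. With all 18 arrays as deposited, 2 further subunits, 1 channel regulator, 6 calcium-handling and 2 excitability genes were lower than in KO CD islets. That was beside 41.1% of all genes. Against WT HFD islets these counts were 2, 0, 5 and 3, beside 20.3%, and 0 were higher in either comparison. RMA values carry no signal over background per probe, so dim genes such as Cacna1e have no lower limit here.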
